A study of Mus musculus with 2 samples.

Results

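The glutathione peroxidases and peroxiredoxins were followed as a group of 10 genes, *Gpx1*, *Gpx3*, *Gpx4*, *Gpx7*, *Gpx8*, *Prdx1*, *Prdx2*, *Prdx4*, *Prdx5* and *Prdx6*, out of 20887 genes that the arrays could name. They were chosen by family and with their RFF4 minus Control differences already known, above all that of *Gpx8*, so that these differences are descriptions and nothing is read from their number. The probes whose RefSeq accession resolved to a member numbered 14 and were present on both arrays. RNA came from TCRαβ+CD8αα+ intraepithelial lymphocytes (IELs), the T cells that lie between the epithelial cells of the small intestine, sorted as TCRβ+ cells without CD4, CD8β or TCRγδ. The Control group was labelled Rbpjf/f, and the RFF4 group CD4-Cre Rbpjf/f. Both were C57BL/6, males and females pooled, 8 to 12 weeks old. Both groups thus carried the floxed *Rbpj* allele, and RFF4 differed by Cre recombinase under *Cd4* control, which acts in all αβ T cells that have passed through CD4 expression in the thymus and not in this subset alone. The study's text instead describes its controls as Cre carriers with unfloxed *Rbpj*, so whether Cre itself was matched cannot be told from the sources used here. Each group was 1 pool of RNA from several isolations on 1 array, and no test, SD or p-value across samples could be had. In pooled RNA, fewer cells of a type and less RNA per cell cannot be told apart.

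Both families remove peroxides. Glutathione peroxidases reduce hydrogen peroxide or lipid hydroperoxides, several of them with glutathione and a selenocysteine in the active site. *Gpx7* and *Gpx8* encode endoplasmic reticulum enzymes that carry cysteine at that site and work beside the oxidases and protein disulfide isomerases that fold secreted proteins. Peroxiredoxins use a reactive cysteine that thioredoxin usually restores, and *Prdx4* encodes the one found in the endoplasmic reticulum. RBPJ is the DNA-binding protein through which Notch receptors act on transcription.

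The arrays shared a slide and a scan. Of 59305 gene spots per array, 57.2% were well above background on the Control array and 49.7% on the RFF4 array, no spot was saturated (0 on each), and the 75th percentile signal of the RFF4 array was 44.5% of that of the Control array. Levels are log2 signals minus that percentile of the same array, and differences are RFF4 minus Control. Probes spotted repeatedly gave a technical SD of 0.16 for a log2 difference, which covers neither mice nor sorts. The target gene did not separate the labels, since the brighter *Rbpj* probe was 1.96 on the Control array and 2.28 on the RFF4 array and the dimmer one −1.44 and −0.62, higher by 0.82, and the place of these probes relative to the floxed exons is not given in the sources used here. The Notch targets *Heyl* and *Dtx1* were 13.9-fold and 12.3-fold lower on the RFF4 array. The T cell and IEL markers were well above background on both arrays for 11 of 12 listed names, with differences from −0.59 for *Klrd1*, a natural killer receptor chain, to 1.02 for *Gzma*, a granzyme, *Cd3d* of the T cell receptor complex at 0.54, and a median of 0.15. That median was below 0, from −0.023 to −0.97, under median scaling, quantile normalization, cyclic loess, normexp and scaling to spike-in controls.

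*Gpx8* was the member that differed most. Its signal was 5125 on the Control array, 151 times the local background, and 196 on the RFF4 array, 4.78 times the local background. The RFF4 signal was 3.83% of the Control signal before any scaling. As levels, these were 3.33 and −0.21. *Gpx8* therefore fell by 3.54 on the log2 scale, or was 11.6-fold lower, and both signals passed the scanner's test for being well above background. The single *Gpx8* probe lay on 1 spot per array, for which the scanner software gave an error of 0.20 on the log2 difference. The fall was 21.8 times the technical SD. Of the 9 members with a measured difference, *Gpx8* was the 1 more than 2-fold lower, where 5.05% of all 13513 genes with a difference were, and it was also more than 4-fold lower, where 0.585% were.

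**Figure D1:**
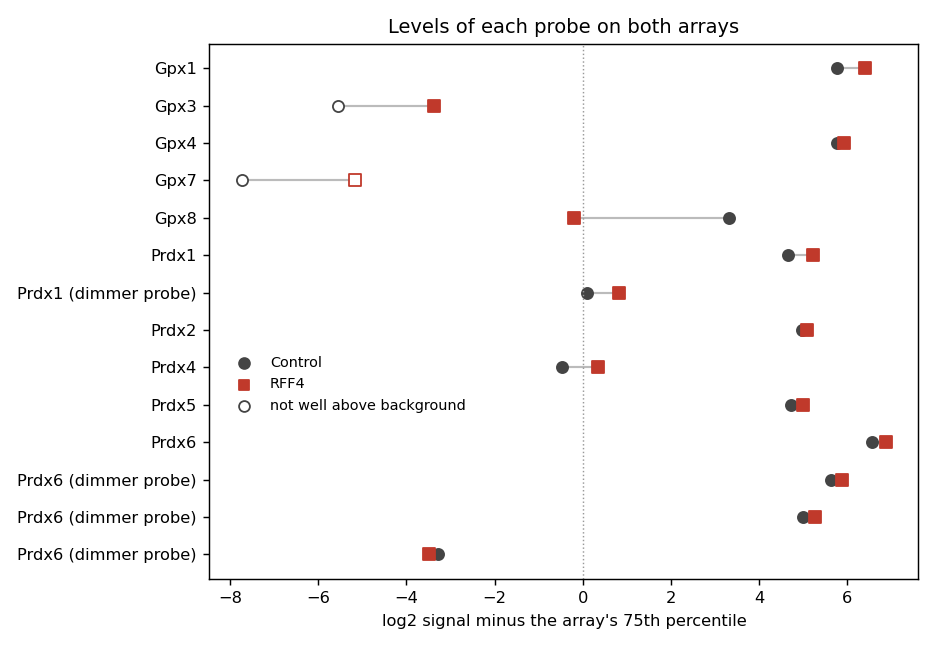
Level of each of the 14 member probes on the Control array (grey circles) and the RFF4 array (red squares), as log2 signal minus the 75th percentile of the array. Open symbols are not well above background. *Gpx8* moved from 3.33 to −0.21, while the other probes of members well above background on both arrays lay close together, and levels should be compared along a row only.

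In the order of differences, 7 genes lay below *Gpx8*, and 5 of 12955 did among genes well above background on both arrays. Over all genes the count was 18 with no bound for dim genes and 2 with normexp. Next below it in that shorter order were *Gm4956* at −3.61 and *Dtx1*, a Notch target that encodes an E3 ubiquitin ligase, at −3.63. Both lay within 1 technical SD of *Gpx8*. Next above were *Il34*, a ligand of the macrophage growth factor receptor CSF1R, at −3.23, and *Lyl1*, a basic helix-loop-helix transcription factor, at −3.14. The likeness is that of 1 difference between 2 arrays.

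The *Gpx8* gene lies on chromosome 13, at 113042757 to 113046430 of assembly GRCm38.p6, on the minus strand. The 208 bases before its most upstream annotated start are shown because the gene had the largest difference of the group, on RefSeq sequence at chr13:113046431-113046638, minus strand, 5′ to 3′. Capitals mark TGGGAA, the core of the RBPJ recognition sequence, which occurs there 1 time.
*Gpx8*: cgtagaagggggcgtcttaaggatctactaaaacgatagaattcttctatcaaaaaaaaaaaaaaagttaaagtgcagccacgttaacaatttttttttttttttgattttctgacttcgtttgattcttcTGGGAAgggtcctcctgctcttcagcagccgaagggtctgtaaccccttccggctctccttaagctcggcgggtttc

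The same 6 letters are common. On either strand they were found in 25.6% of 32851 promoter windows that reach from 250 bases before to 50 after a start, and in at least 1 window of 28.3% of 27025 genes. Of the 10 members, 9 had windows, 12 in all, and 5 held the letters, which were *Gpx3*, *Gpx4*, *Gpx8*, *Prdx1* and *Prdx4*. Of these 5, *Gpx8* alone was lower on the RFF4 array with this scaling. The match in *Gpx8* began at −77 from the most upstream annotated start. The longer form GTGGGAA, which contains the core, was found in 6.38% of windows and among members in *Gpx4* alone, and the *Dtx1* window held neither. The element TGACNNNGC bound by NRF2, the inducer of antioxidant genes, was found in 12.4% of windows and among members in *Prdx1* alone. These are matches of letters and not binding sites. For comparison with *Gpx8*, 30 bases around a match are given in the direction of each gene for the other members that held one, with the match in capitals (TTCCCA is the core read on the other strand, and the second *Prdx1* line holds the NRF2 element on the other strand).
*Gpx3*, chr11:54902714-54902743, plus strand: catctcctgttcTTCCCAggcagccgggcc
*Gpx4*, chr10:80053823-80053852, plus strand: ggggcacccagGTGGGAAagcggagcctga
*Prdx1*, chr4:116685379-116685408, plus strand: cttttctacctcTGGGAAcagcatcactga
*Prdx1*, chr4:116685456-116685485, plus strand: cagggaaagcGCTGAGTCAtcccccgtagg
*Prdx4*, chrX:155338569-155338598, minus strand: cttttgttaaatTGGGAAaacacttcagct

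The other 7 members well above background on both arrays differed by 0.12 to 0.82, from 1.09-fold to 1.76-fold higher on the RFF4 array, and none passed 2-fold. All 7 were lower before scaling, with RFF4 signals at 48.3% to 78.4% of the Control signals, so that their direction rests on the scaling. It also turned for *Gpx4* and *Prdx2* under median scaling, cyclic loess and normexp, for *Gpx4* and *Prdx6* under quantile normalization, and for all 7 under spike-in scaling, in which added control RNAs are made equal between arrays. Among all genes with a difference the median was −0.015, and 48.9% were higher on the RFF4 array, or 49.8% of those well above background on both. Of the 7, 4 differed by more than 2 technical SD, *Prdx4*, *Gpx1*, *Prdx1* and, narrowly, *Prdx6*, all of them higher. Of all genes, 57.7% differed by that much and 29.7% were higher by that much, and nothing is read from the count.

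Among the selenium-dependent enzymes, *Gpx1*, which encodes the peroxidase of cytosol and mitochondria, had a signal of 27879 on the Control array and 19248 on the RFF4 array. Its level rose from 5.77 to 6.41, a difference of 0.64. *Gpx4*, whose product reduces phospholipid hydroperoxides in membranes and thereby protects cells from ferroptosis, had signals of 28001 and 13774 and levels of 5.78 and 5.93. Its difference of 0.15 was smaller than the technical SD. Genes in the brightest of 8 equal groups by mean signal, to which both belong with *Prdx1*, *Prdx2*, *Prdx5* and *Prdx6*, had a median of 0.14. Relative to that median *Gpx1* lay at 0.49, *Prdx1* at 0.44, *Prdx6* at 0.19, *Prdx5* at 0.11, *Gpx4* at 0.0035 and *Prdx2* at −0.022.

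Among the peroxiredoxins, *Prdx4* of the endoplasmic reticulum had the largest difference. Its signals of 367 and 287 gave levels of −0.47 and 0.34, a difference of 0.82, or 1.76-fold. The ER enzymes *Gpx8* and *Prdx4* thus differed in opposite directions with this scaling, although *Prdx4* stood at −0.31 under spike-in scaling. *Prdx1*, a cytosolic enzyme and known target of NRF2, had signals of 12779 and 8480 and levels of 4.65 and 5.23. Its difference was 0.58, and its dimmer probe, at 0.093 and 0.82, gave 0.73. *Prdx2*, the cytosolic enzyme abundant in red cells, had signals of 16029 and 7745 and levels of 4.98 and 5.10. Its difference of 0.12 was the smallest of the group. *Prdx5*, found in mitochondria, peroxisomes and cytosol, had signals of 13585 and 7201, levels of 4.74 and 4.99, and a difference of 0.25. *Prdx6*, which takes glutathione in place of thioredoxin and also has phospholipase activity, had signals of 47953 and 26829 and levels of 6.56 and 6.89. Its difference was 0.33, and 2 dimmer probes gave 0.25 and 0.29. The dimmest *Prdx6* probe, with signals of 52.6 and 20.1, gave −0.22, so that the 4 probes did not share a direction.

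**Figure D2:**
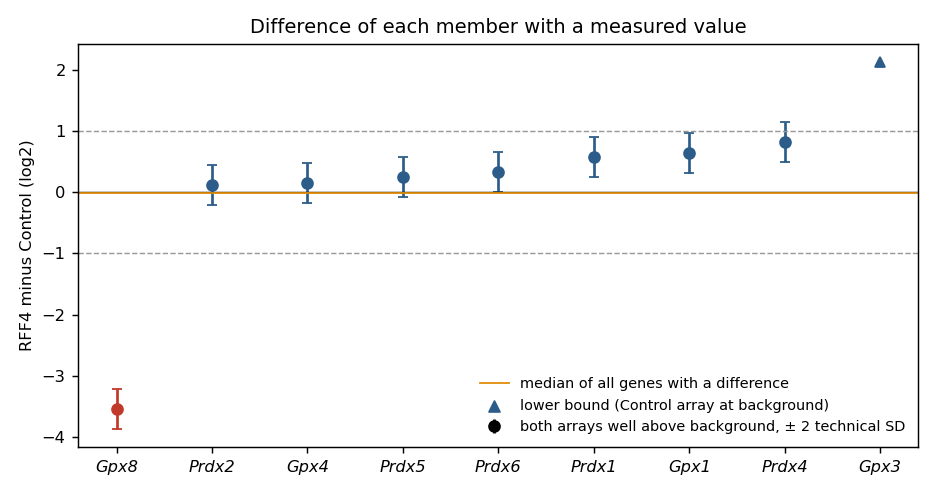
RFF4 minus Control difference (log2) of the 9 members with a measured value, ordered by size, with bars of 2 technical SD, dashed lines at 2-fold and an orange line at the median of all genes. *Gpx8* lies at −3.54, 7 members lie between 0.12 and 0.82, and the triangle for *Gpx3* is a lower bound.

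*Gpx3* and *Gpx7* were dim. *Gpx3*, which encodes the peroxidase secreted into plasma, had a signal of 10.8 on the Control array, not well above background, and 21.7 on the RFF4 array, which was. Set against the lowest Control level well above background, −5.51, its RFF4 level of −3.39 was at least 4.35-fold higher, a difference of at least 2.12. It was the 1 member more than 2-fold higher, where 12.3% of all genes were, and more than 4-fold higher, where 1.85% were. It was also the 1 member that passed the filter through the array on which it was brighter. The scanner error on its difference was 0.41. The call beyond 4-fold was lost under 6 of the 10 alternatives. *Gpx3* had no value where both arrays had to be well above background, and its bounds were 3.85-fold under median scaling, 3.72-fold with quantile normalization, 3.63-fold with cyclic loess, 2.29-fold with normexp and, under spike-in scaling, 0.997 on the log2 scale. *Gpx7*, the close relative of *Gpx8* in the endoplasmic reticulum, had signals of 2.38 and 6.29 and was not well above background on either array, so no difference is given. A fall like that of *Gpx8* could not have been seen in it.

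**Figure D3:**
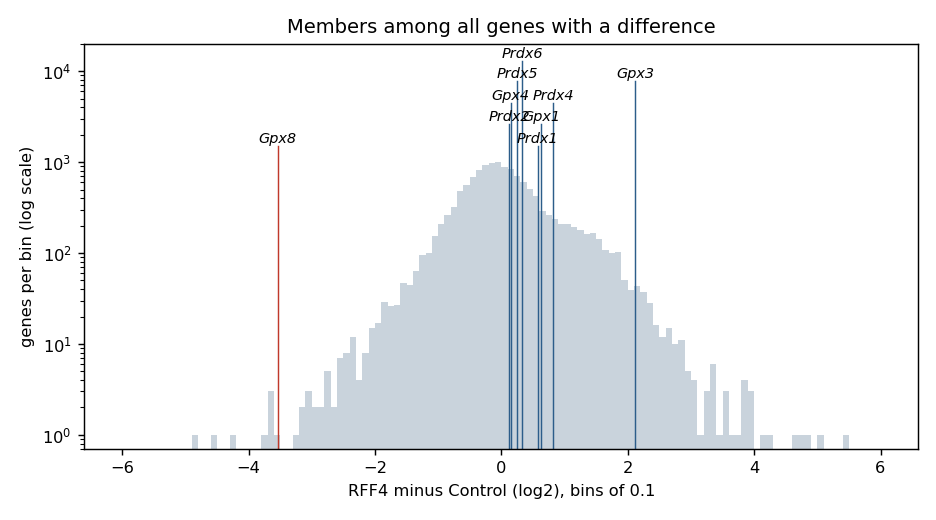
Number of genes per bin of 0.1 in RFF4 minus Control difference (log2), on a log scale, over the 13513 genes with a difference, with the 9 measured members as vertical lines. *Gpx8* stands in the sparse left tail, with 7 genes lower, and *Gpx3* in the right tail at its bound of 2.12.

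The remaining genes of both families were *Gpx2*, *Gpx5*, *Gpx6*, *Prdx3* and *Prdx6b*. *Gpx2*, the glutathione peroxidase of the gut epithelium, had signals of 15281 and 21099, the higher value on the RFF4 array even before scaling. Its levels were 4.91 and 6.54, a difference of 1.64 or 3.11-fold, against 0.51 or 1.42-fold under spike-in scaling. *Prdx3*, the mitochondrial peroxiredoxin, was the only gene of both families spotted 10 times per array. Its levels ran from 1.70 to 1.96 over 10 spots on the Control array and from 2.25 to 2.32 over the 8 usable spots on the RFF4 array, a mean difference of 0.44 with this scaling. Before scaling its RFF4 signal was 60.1% of the Control signal, and under spike-in scaling the difference was −0.69. These are spots of the same 2 pools and not samples. *Gpx5*, *Gpx6* and *Prdx6b* were not well above background on either array.

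The genes that supply or share the electrons of these enzymes were read from 8 lists of 113 names, 103 of them measured. By more than 2-fold, 14 of the 103 (13.6%) were higher on the RFF4 array and 0 were lower, beside 12.3% and 5.05% of all genes, and the median was 0.18. With median scaling 9 were higher and 1 was lower, beside 9.75% and 8.04% of all genes. With normexp 6 were higher and 1 was lower, beside 9.26% and 3.66%. Under spike-in scaling 1 was higher and 50 were lower, beside 1.47% and 59.3%. The lowest difference in the 8 lists was −0.98, against −3.54 for *Gpx8*.

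Endoplasmic reticulum folding genes, which work with *Gpx8* and *Prdx4*, had 19 of 20 names measured and a median of 0.073, which was below 0 under median scaling (−0.10), normexp (−0.10) and spike-in scaling (−1.05). *Pdia5*, a protein disulfide isomerase, was the 1 gene past 2-fold, 3.85-fold higher on the RFF4 array, a difference of 1.94, and the lowest difference in the list was −0.63. The thioredoxin system, which restores peroxiredoxins, had all 12 names measured, a median of −0.11 and 0 genes past 2-fold. Under spike-in scaling 10 were more than 2-fold lower, beside 59.3% of all genes. The median was then −1.23, beside −1.14 for all genes. *Txn1*, thioredoxin itself, had the largest difference of this list with the reported scaling, 0.92. The glutathione cycle had 13 of 14 names measured and a median of 0.56, which was 0.27 to 0.38 with quantile normalization, cyclic loess, median scaling and the mean of all probes, and −0.57 under spike-in scaling. *Ggt1*, the enzyme that breaks down extracellular glutathione, differed by 1.84 and *Idh1*, a source of NADPH, by 1.13.

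Glutathione S-transferases, which couple glutathione to other molecules, had the highest median of the 8 lists. Of 17 names, 16 were measured, all 16 were higher on the RFF4 array, beside 48.9% of all genes, and 6 by more than 2-fold, beside 12.3%, with a median of 0.90. With median scaling 13 were higher, 4 of them by more than 2-fold, beside 9.75% of all genes. With normexp 13 were higher, 2 of them by more than 2-fold, beside 9.26%. Under spike-in scaling 4 were higher, 0 of them by more than 2-fold, beside 1.47%, and 3 were more than 2-fold lower, beside 59.3%. The largest differences were those of *Mgst3* (1.41), *Gsta4* (1.22) and *Mgst1* (1.21). The median was −0.22 under spike-in scaling and 0.73 to 0.98 under the other settings.

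The remaining lists were near the middle of all genes. Among enzymes that remove superoxide and peroxide, 3 of 4 names were measured and *Cat*, catalase, differed by 1.15. The dimmer *Cat* probe gave 0.175, and with the mean of all probes 0 genes of that list passed 2-fold. NRF2 and its targets had a median of −0.013 over 10 genes, with *Nqo1*, a quinone reductase, at 1.40. Its lowest value was that of *Hmox1*, heme oxygenase and also a known NRF2 target, at −0.98. It ranged from −0.59 with the mean of its probes to −2.11 under spike-in scaling, and its dimmer probe was at −0.20. *Maff*, *Mafg* and *Mafk*, small partners of NRF2, stood at −0.38, −0.58 and −0.38. Selenoproteins and the factors that make them had a median of 0.032 over 19 genes of 20, with *Dio1*, a deiodinase, at 1.27. Genes of lipid peroxidation and ferroptosis had a median of −0.072 over 11 of 16 names, with *Ncf4*, a subunit of the phagocyte NADPH oxidase, at 2.71 and *Alox5*, the leukotriene-forming lipoxygenase, at 1.09. The medians of the superoxide, selenoprotein and lipid lists changed sign under some settings, the lipid list to 0.22 among genes well above background on both arrays.

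**Figure D4:**
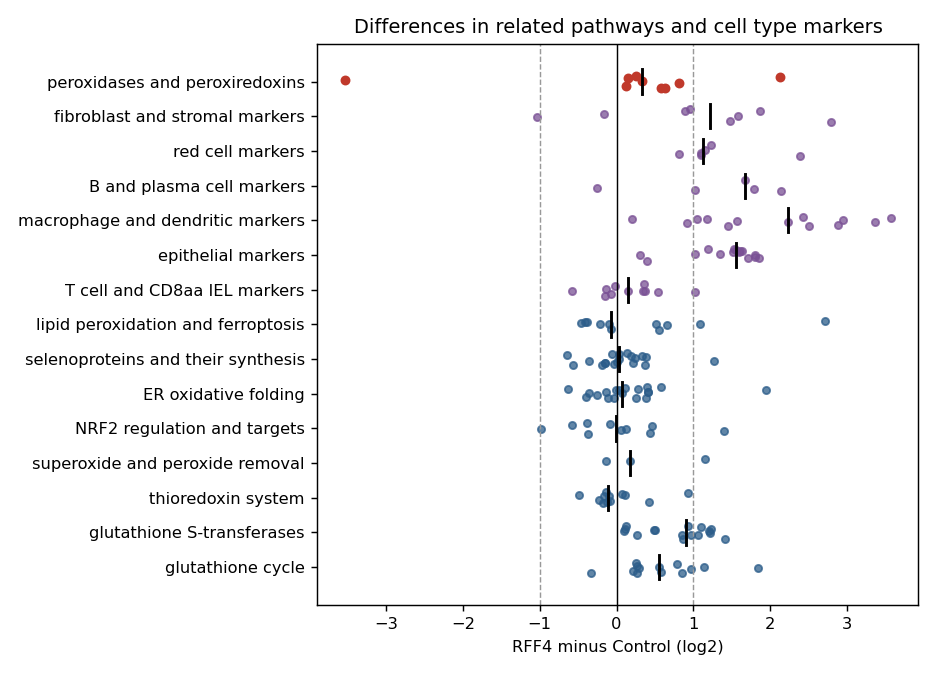
RFF4 minus Control differences (log2) of single genes in the 9 measured members (red), 8 pathway lists (blue) and 6 lists of cell type markers (purple), with black bars at medians and dashed lines at 2-fold. The epithelial, macrophage, B cell and red cell markers lie mostly right of 2-fold, as do 4 of 8 stromal markers, while *Gpx8* lies left of every gene in these lists.

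Markers of other cells moved with the higher values, and the medians of these 5 lists were above 0 under every setting. Their counts past 2-fold depended on the scaling. Under spike-in scaling 0 epithelial, 7 macrophage and dendritic, 1 B cell, 1 red cell and 1 stromal marker were more than 2-fold higher, beside 1.47% of all genes. In that setting 1 B cell and 2 stromal markers were more than 2-fold lower, beside 59.3% of all genes. There 12 of 15 epithelial markers were higher at all, and the red cell median was 0.0064. Epithelial markers were higher for 15 of 15 genes on the RFF4 array, 13 of them by more than 2-fold, beside 48.9% and 12.3% of all genes, led by *Lgals4* (1.86), *Vil1* (1.80) and *Krt20* (1.80), and their summed level went from 7.84 to 9.45. Among them *Epcam* was at 0.40 and *Cdh1* at 0.31. The part of epithelial RNA in the values of *Gpx2*, *Gpx1*, *Prdx1* and the glutathione S-transferases was not tested. Macrophage and dendritic markers were higher for 13 of 13 measured genes of 14 listed, led by *Cx3cr1* (3.57), *Cd74* (3.37) and *H2-Aa* (2.95). Their summed level was 6.25 against 7.41. On the Control array *Itgax* (5.52) and *Itgam* (4.32) had the highest levels in that sum, and they differed by 0.20 and 0.92. The dimmer *Itgam* probes gave 0.58 and −0.39. The macrophage and dendritic markers stand beside *Ncf4* and *Alox5*, and their part in these was not tested. Red cell markers were higher for 6 of 6 measured genes of 9 listed, with *Car1* at 2.39, *Hbb-bt* at 1.23 and *Alas2* at 1.16, and a summed level of 5.56 against 6.76. *Prdx2* differed by 0.12, and the part of red cell RNA in its value was not tested. B and plasma cell markers had 5 of 8 names measured and 4 more than 2-fold higher, *Mzb1* (2.15), *Ms4a1* (1.79) and *Jchain* (1.68) foremost, with a summed level of 4.73 against 5.88. The remaining measured one, *Cd79b*, was lower, at −0.26.

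Connective tissue cells are known to express *Gpx8*, *Gpx7* and *Gpx3*. Of 12 stromal markers, 8 were measured, 4 more than 2-fold higher and 1 lower, beside 12.3% and 5.05% of all genes, led by *Sparc* (2.80), *Dcn* (1.86) and *Col6a1* (1.58), and the summed level went from 4.55 on the Control array to 5.52 on the RFF4 array. *Vim*, which leukocytes also express, was part of that sum, and without it the summed level went from 0.50 to 1.70. *Col1a1*, a fibroblast collagen, was at −0.16, and *Pecam1*, an endothelial marker, at −1.03, the 1 lower call, which was lost with cyclic loess and normexp. *Pdgfra*, *Pdgfrb*, *Lum* and *Cdh5*, which define fibroblasts, pericytes and endothelium, were not well above background on either array. The part of stromal RNA in the values of *Gpx8* and *Gpx3* was not tested.

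**Figure D5:**
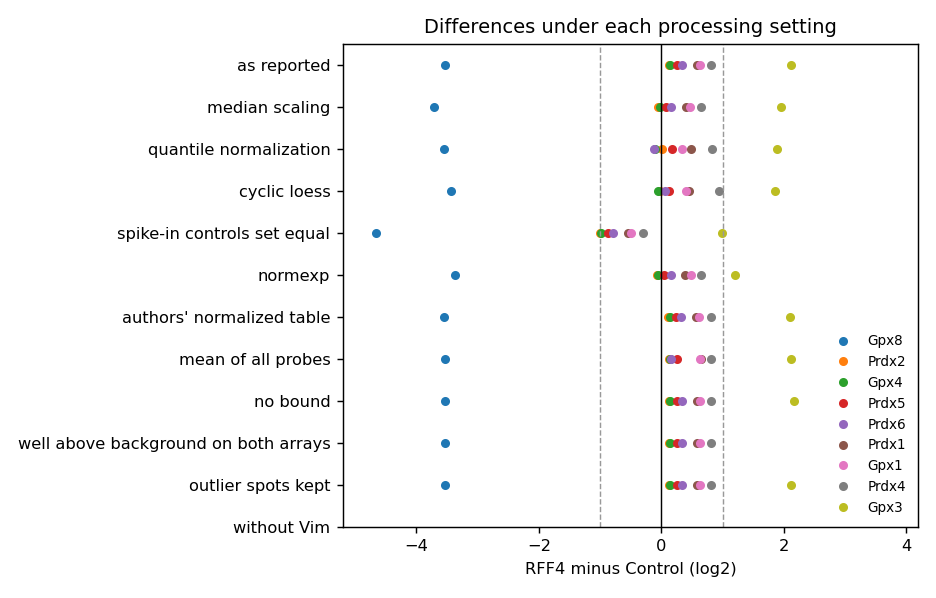
RFF4 minus Control difference (log2) of the 9 measured members, one color each, under the reported processing and 10 alternatives, with dashed lines at 2-fold. *Gpx8* stays between −3.36 and −4.66, while the group near 0 moves below 0 under spike-in scaling.

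*Gpx8* kept its direction under all 10 alternatives. It was 10.3-fold to 25.3-fold lower, from −3.36 with normexp background correction to −4.66 under spike-in scaling, where all genes had a median of −1.14. Relative to the median of all genes under the same setting it lay between −3.36 and −3.53. No second *Gpx8* probe could be set beside it, and with 1 pool per genotype the difference has no replicate check.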

How the data were processed

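RNA of sorted TCRαβ+CD8αα+ IELs, 1 pool per genotype, was measured on 2 Agilent mouse arrays of 1 color. The deposited intensity values came from Agilent Feature Extraction 10.7.1.1, which per the labels the authors used, and were background-subtracted but not normalized between arrays. The authors also deposited a table of log2 values centered per probe, whose settings in GeneSpring are not given in the sources used here.

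Signals were taken as log2 minus the 75th percentile of each array over gene spots. Spots marked as outliers were dropped before averaging per probe. A probe was called well above background where the scanner's mark was set on 50% of its spots or more. Of 29150 probes with a RefSeq accession, 27509 matched a symbol of assembly GRCm38.p6. The brightest probe stood for a gene. Where 1 array was not well above background, the difference was a bound against the lowest level well above it, and no value was given if the bound was under 1-fold. The number of arrays limits precision.

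Members, lists and the fold of 2 were chosen with earlier results of these data known. Genes outside the families were named by rule: up to 4 past 2-fold per pathway list (otherwise the largest), the 3 largest per marker list, *Rbpj*, *Heyl* and *Dtx1* as checks of the labels, and 2 on each side of *Gpx8*. Exceptions, named after their values were seen, were *Prdx6b*, *Hmox1*, *Maff*, *Mafg*, *Mafk*, *Vim*, *Col1a1*, *Pecam1*, *Epcam*, *Cdh1*, *Itgax*, *Itgam*, *Cd79b*, *Pdgfra*, *Pdgfrb*, *Lum* and *Cdh5*. The alternatives were median scaling, quantile normalization, cyclic loess, scaling to 8 spike-in controls, normexp with an offset of 50, the deposited log2 table, the mean of all probes, no bound, both arrays well above background, and outlier spots kept. Normexp used median signals. Calculations used Python 3.11.15, numpy 2.4.6, pandas 2.3.3, R 4.3.3 and limma 3.58.1, and were tested on simulated data. Promoter sequences are those of RefSeq.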

Additional observations from a re-analysis of the deposited data

How the results depend on the processing

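Moves of a difference were judged against the technical SD, 0.16, and those of counts against a ratio of 1.5. The cause of a move was not tested unless the setting is a constant shift, which is −0.17 for median scaling and −1.12 for spike-in scaling. The difference of *Gpx8* moved to −3.71 with median scaling, −4.66 under spike-in scaling and −3.36 with normexp, and kept its direction under all alternatives. The median difference of the 9 measured members, 0.33, moved to 0.17 with quantile normalization, 0.16 with median scaling, 0.15 with normexp, 0.13 with cyclic loess and −0.79 under spike-in scaling. The count of members more than 2-fold lower moved from 1 to 2 under spike-in scaling, where *Prdx2* was added and 59.3% of all genes were that much lower. The count more than 2-fold higher moved from 1 to 0 under spike-in scaling, where the bound of *Gpx3* was 0.997, and with genes well above background on both arrays, where *Gpx3* is left out. Of the other 8 members, 8 moved down under median and 8 under spike-in scaling, 4 with cyclic loess, 7 with normexp, 4 with quantile normalization and 1 with the mean of all probes. None moved with the deposited log2 table, without bounds or with outlier spots kept, nor did the 7 members left when both arrays had to be well above background. Leaving *Vim* out of the stromal sum, an alternative chosen after seeing the data, changed the summed levels from 4.55 and 5.52 to 0.50 and 1.70 and kept the direction. The 8 spike-in controls differed by −0.045 before scaling. No leave-one-out was run and no paired analysis was possible because each genotype has 1 array. Median signal was 5.78 times background on the RFF4 array and 9.47 times on the Control array, so that falls of dim genes are the less visible.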
